A study of Mus musculus with 3 samples.

Results

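The 9 imprinted growth regulators H19, Dlk1, Meg3 (also called Gtl2), Peg3, Mest, Plagl1, Grb10, Cdkn1c and Ndn were measured in cultured aortic endothelial cells of Pim1-/- and wild-type mice. They were found by gene name among the non-control probes of a 60-mer two-colour array, which gave 19 of 41174 probes and 9 of 19754 named genes. All 9 genes and 17 of the 19 probes passed the filter on dim signals, which asked for a probe well above background in either channel on at least 2 of 3 arrays. Both genotypes were of the FVB/N strain, described as 12 weeks old and female, and the primary cells were grown on gelatine in serum-containing medium and harvested 24 hours after seeding. The knockout cells lack the serine/threonine kinase Pim1. The 3 arrays, called biological replicates in the labels, each carried knockout RNA in Cy5 and wild-type RNA in Cy3, with no dye swap. A dye effect particular to a probe therefore cannot be told apart from genotype in any ratio below. The labels did not give the deleted stretch of Pim1, the number of animals behind a culture, or whether the wild-type RNA was 1 pool.

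An imprinted gene is transcribed from only 1 parental copy, because the copies carry different epigenetic marks, chiefly DNA methylation set in the germ line at control regions. Imprinted genes lie in clusters under shared control regions, and many act on fetal growth: paternally expressed genes often promote it and maternally expressed genes often restrain it. Several are highly active in embryonic mesenchyme and fall after birth. Among the genes measured here, H19, Meg3, Grb10 and Cdkn1c are normally expressed from the maternal copy, and Dlk1, Peg3, Mest, Plagl1 and Ndn from the paternal copy. The arrays measured summed RNA and did not tell the parental copies apart.

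The sequences below are the probes that carried the results on noncoding RNAs, given as deposited in the array files, 5′ to 3′, with mm8 coordinates. They are shown because the falls of Meg3 and Rian in the Dlk1-Dio3 cluster and the split of H19 between arrays were each read by them. For Meg3, at chr12:109997571-110006056 (plus strand, a 60-base probe whose ends lie apart in the genome) and chr12:110019275-110019334 (plus strand), for Rian, at chr12:110108401-110108460 (plus strand), and for H19, at chr7:142385254-142385313 and chr7:142385503-142385650 (both minus strand), they read:
Meg3 upstream probe: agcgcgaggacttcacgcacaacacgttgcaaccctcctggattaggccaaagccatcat
Meg3 downstream probe: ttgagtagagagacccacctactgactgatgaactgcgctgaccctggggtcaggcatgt
Rian probe: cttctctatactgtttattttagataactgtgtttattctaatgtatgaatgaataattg
H19 first probe: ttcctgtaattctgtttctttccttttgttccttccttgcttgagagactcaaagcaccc
H19 second probe: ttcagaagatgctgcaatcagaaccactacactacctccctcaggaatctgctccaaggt

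Several features of the cultures and arrays bear on all results. Signal was well above background for 53.8% to 57.2% of knockout and 58.4% to 62.5% of wild-type probes. Array 1 stood apart, with ratios correlating at r = 0.680 and 0.698 with arrays 2 and 3 across probes, against 0.905 between those arrays. The brighter Pim1 probe had a log2 ratio of −1.04 ± 0.10 (SD, n = 3, limma adjusted p = 0.00294). The endothelial markers Pecam1, Cdh5, Tie1 and Erg were not well above background in either channel on any array. Of 14 endothelial markers, 4 in knockout and 6 in wild type were above it on every array. The labelled cell type was thus not borne out by its defining markers Pecam1, Cdh5, Tie1 and Erg. Other listed markers, Flt1, Eng and Egfl7, were above background in both channels on every array. The mean log2 levels of Flt1 were 11.49 in knockout and 11.22 in wild type. Summed channel intensity of the 14 was 8633 to 11483 in knockout and 4896 to 5549 in wild type. Of 6 tested, Eng (log2 ratio 2.51) and Egfl7 (1.42) rose, Fli1 fell (−0.87) and 3 did not pass. Summed channel intensity of 10 mesothelial markers was 11176 to 14177 in knockout and 80542 to 100672 in wild type, that of 10 fibroblast markers 213825 to 241387 in knockout and 178387 to 212086 in wild type, and that of 6 adipocyte markers, with Adipoq and Plin1 not above background, 2003 to 2235 in knockout and 6696 to 9356 in wild type. These sums are linear and are set mostly by the brightest markers. For fibroblasts those were Col1a1 and Col1a2, which moved in opposite directions, with log2 ratios of 0.62 and −0.70. By marker, 7 of 10 mesothelial markers fell, and 7 of 10 fibroblast markers rose and 1 fell. Of 4 tested adipocyte markers, 3 fell and 1 rose. For these counts, 11.4% of all 13485 tested genes fell and 8.67% rose. The part of these lists in the results below was not tested. Fewer cells of a type and less RNA per cell cannot be told apart in such samples. Although both groups were labelled female, Xist was at least 168-fold lower in knockout and the Y-linked Eif2s3y at least 28.1-fold higher, so sex and genotype cannot be told apart either.

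Of the 9 regulators, 4 fell in knockout cells, none rose and 5 did not pass the test (limma, Benjamini-Hochberg adjusted over all tested probes, threshold 0.05). The 4 were Grb10, Meg3, Ndn and Plagl1, which is 44.4% of the list, where 11.4% of 13485 tested genes fell, 8.67% rose and 20.1% changed in either direction. At an unadjusted p under 0.05, 1 of the 9 rose (Peg3), where 16.4% of all tested genes rose, and 5 fell (Mest in addition), where 19.6% of all fell. The median log2 ratio of the 9, knockout over wild type, was −0.69, against −0.016 over all tested genes. The falls were spread over both parental classes, with 2 of the 4 maternally expressed and 2 of the 5 paternally expressed genes. Ratios of 7 genes had 1 sign on all arrays, 6 of them lower in knockout, and H19 and Cdkn1c had both signs. How many of all tested genes kept 1 sign, or had groups that did not overlap, was not counted. The sets of genes called differed with array 1 left out, when 5 of 9 fell (Mest in addition) and H19 and Peg3 rose, where 20.7% of all genes fell and 20.7% rose. An adjusted p on 2 arrays leans on the variance pooled over genes, so it says little about a gene's own spread. With array 2 left out, Grb10, Meg3 and Ndn fell, where 3.49% of all genes fell, and the same 3 genes fell with array 3 left out, where 3.43% did; Plagl1 was then not called.

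**Figure D1:**
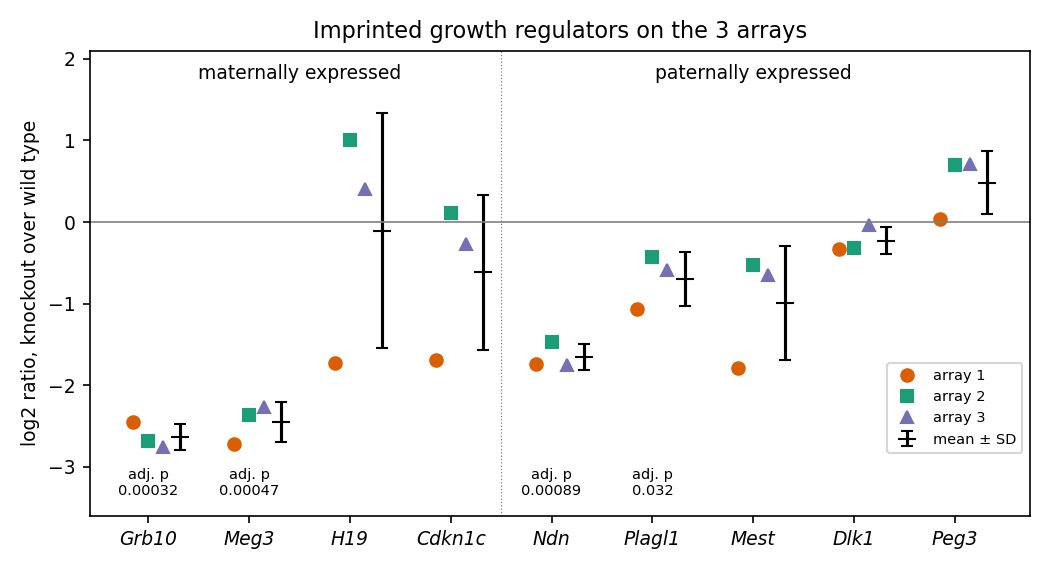
Log2 ratio, knockout over wild type (y axis), of each of the 9 regulators (x axis), grouped by the parental copy normally expressed. Symbols are the 3 arrays, bars the mean ± SD, and adjusted p is printed for the 4 called genes. Grb10, Meg3 and Ndn lie at −1.47 or below on every array, while array 1 lies far below arrays 2 and 3 for H19, Cdkn1c and Mest.

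Grb10 encodes an adaptor that binds activated insulin and IGF1 receptors and dampens their signalling. Its brightest probe, at chr11:11830965-11831024 (minus strand), had normalised log2 channel levels of 7.37, 7.17 and 7.10 in knockout cells, against 9.82, 9.86 and 9.85 in wild-type cells. The 3 knockout values lay well below every wild-type value, and signal exceeded background for both genotypes on each array. The ratios were −2.46, −2.69 and −2.75, a mean of −2.63 ± 0.16 (SD, n = 3) or 6.21-fold lower, with limma adjusted p = 0.000321. This size depends on the processing, and the scanner software's own log ratio gave −3.56 on the log2 scale. Another Grb10 probe, with ends at 11833580 and 11834228, fell by 0.48 ± 0.09 on the log2 scale (adjusted p = 0.0274), and the remaining one, at 11870574 to 11870633, had a ratio of −0.38 ± 0.08 (adjusted p = 0.0501). Both dim probes were at background in knockout on all arrays, so they give bounds of at least 1.39-fold and at least 1.30-fold lower. A bound sets the bright channel's mean against the higher of the dim probe's own signal and the lowest signal well above background, on channel values that can carry dye bias.

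Ndn encodes necdin, a MAGE family protein that restrains cell growth, first described in postmitotic neurons. The probe at chr7:62227911-62227970 (plus strand) had log2 levels of 7.82, 7.99 and 7.92 in knockout cells, against 9.56, 9.47 and 9.68 in wild-type cells. The groups did not overlap, and both channels were above background throughout. Ndn was 3.15-fold lower, a log2 ratio of −1.66 ± 0.16 (SD, n = 3), with limma adjusted p = 0.000893, and the ratios were −1.74, −1.47 and −1.76. With array 1 left out the fall was 1.61 on the log2 scale.

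Plagl1 encodes a zinc finger transcription factor, also known as Zac1, that can arrest the cell cycle and acts on other imprinted genes in mouse. Its brighter probe, at chr10:12821672-12821731 (plus strand), had log2 levels of 6.12, 6.29 and 6.06 in knockout cells, against 7.18, 6.72 and 6.66 in wild-type cells. Plagl1 was at background in knockout on all arrays but above it in each wild-type sample, so it was at least 1.61-fold lower in knockout (limma adjusted p = 0.0318). The groups did not overlap, but wild-type array 1 was the highest value. The ratios were −1.06, −0.43 and −0.59, and without array 1 the mean was −0.51 (adjusted p = 0.000810). The call was lost without array 2 (adjusted p = 0.0989), without array 3 (0.153) and with no filter on dim probes (0.0559). The other Plagl1 probe was not above background in either channel and was not tested.

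**Figure D2:**
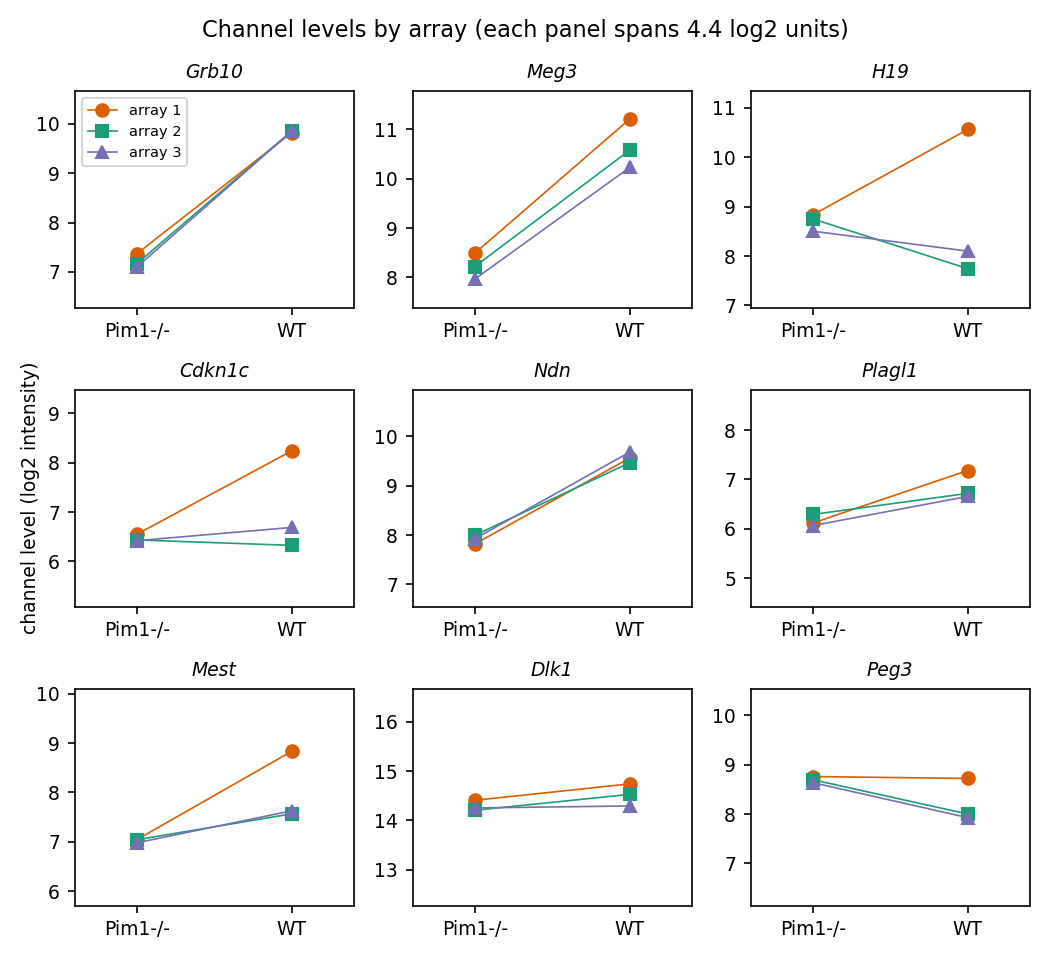
Normalised log2 channel level of each regulator's main probe on the 3 arrays, knockout to the left of wild type. Knockout levels of Grb10, Meg3 and Ndn lie below all their wild-type levels, while wild-type array 1 stands above wild-type arrays 2 and 3 for H19, Cdkn1c and Mest.

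Meg3 is a long noncoding RNA made from the maternal chromosome in the Dlk1-Dio3 cluster, where the paternal chromosome makes the messenger RNAs of Dlk1 and Dio3. Its downstream probe had log2 levels of 8.49, 8.22 and 7.96 in knockout cells, against 11.21, 10.58 and 10.23 in wild-type cells. Every knockout value was below every wild-type value. The ratios were −2.72, −2.36 and −2.26, a mean of −2.45 ± 0.24 (SD, n = 3) or 5.46-fold lower, with limma adjusted p = 0.000474. The upstream probe, 4.07-fold lower with ratios of −2.20, −1.95 and −1.92 and a mean of −2.02 ± 0.16 (adjusted p = 0.000502), gave a fall of like size. The other pair of Meg3 probes, at 110006769 to 110006828 and at 110009155 to 110009214, were not above background in knockout, and were at least 1.74-fold lower (adjusted p = 0.0193) and at least 1.44-fold lower (adjusted p = 0.0403).

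The other maternal noncoding RNAs of the cluster also fell. Rian, which hosts small nucleolar RNAs and lies 200 kb beyond the first Dlk1 probe, had log2 levels of 6.81, 6.98 and 6.63 in knockout cells, against 9.26, 9.19 and 8.63 in wild-type cells. It was 4.68-fold lower, with a mean log2 ratio of −2.23 ± 0.23 (SD, n = 3, limma adjusted p = 0.000558), and its groups did not overlap. This size also depends on the processing, with −3.39 from the scanner software's own log ratio. A second Rian probe was at background in both channels and was not tested. Mirg, a microRNA host 281 kb beyond Dlk1, was not above background in knockout and was at least 2.58-fold lower (adjusted p = 0.00623), with ratios of −1.65, −1.53 and −0.93. Its call was lost without array 2 (adjusted p = 0.0623).

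Dlk1, the paternally expressed gene of the cluster, encodes a transmembrane protein with EGF-like repeats that restrains adipocyte differentiation. The probe at chr12:109908264-109908323 (plus strand) had log2 levels of 14.41, 14.20 and 14.25 in knockout cells, against 14.74, 14.53 and 14.29 in wild-type cells. The groups overlapped and the mean ratio of −0.23 ± 0.17 (SD, n = 3, limma adjusted p = 0.206) did not pass the test; centring each array on its median in place of loess gave 0.055. The second Dlk1 probe, at 109908025 to 109908084, had ratios of −0.05, 0.05 and −0.01. Dio3, the deiodinase that inactivates thyroid hormone, lay 821 kb away with ratios of −1.13, −0.29 and −0.20 (mean −0.54 ± 0.51, adjusted p = 0.130) and was not above background in knockout; with the scanner software's log ratio, which the value table repeats, Dio3 was called lower (−2.24, adjusted p = 0.0143). Of the 5 tested genes of the cluster, the 3 maternal noncoding RNAs fell, where 11.4% of all tested genes fell. Dlk1 did not pass, and Dio3 passed only with that other ratio. Probes of the 3 RNAs lie on the same strand of 1 cluster, so these need not be separate falls. The difference between the classes was not itself tested.

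**Figure D3:**
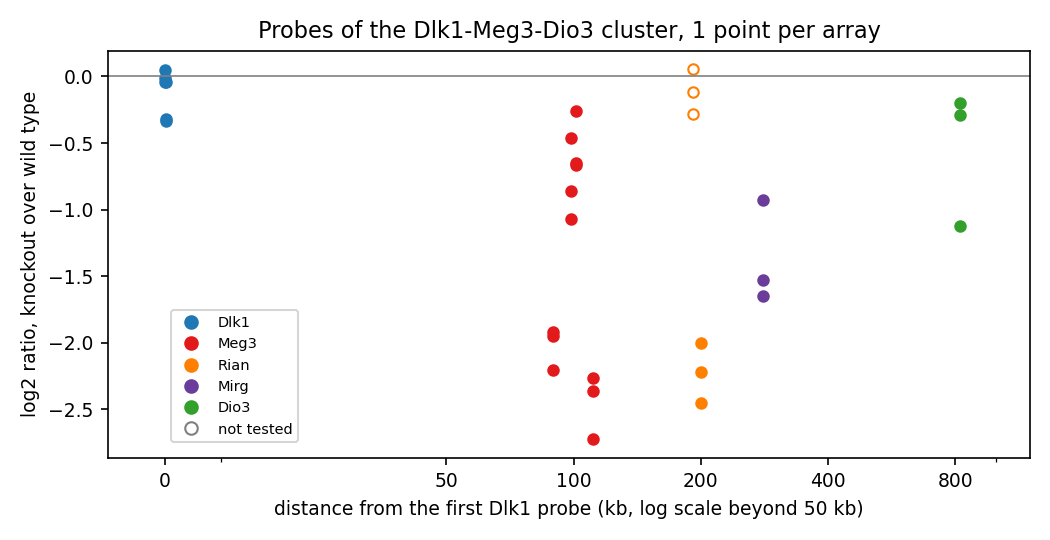
Log2 ratio, knockout over wild type, of each probe of the Dlk1-Meg3-Dio3 cluster against its distance from the first Dlk1 probe (kb, log scale beyond 50 kb), with 1 point per array; open circles were not tested. Dlk1 lies near 0, while the brighter Meg3 probes and the tested Rian probe lie at −1.92 or below on every array.

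The window around the Meg3 start is shown as that of a called gene of the cluster, and any part of it in the falls was not tested. In RefSeq (GRCm38.p6), the 250 bases before the start and 50 after it, at chr12:109540746-109541045 on the plus strand, hold 1 copy of TGACGTCA, the palindromic cyclic AMP response element bound by CREB and ATF factors, in capitals below:
Meg3 promoter: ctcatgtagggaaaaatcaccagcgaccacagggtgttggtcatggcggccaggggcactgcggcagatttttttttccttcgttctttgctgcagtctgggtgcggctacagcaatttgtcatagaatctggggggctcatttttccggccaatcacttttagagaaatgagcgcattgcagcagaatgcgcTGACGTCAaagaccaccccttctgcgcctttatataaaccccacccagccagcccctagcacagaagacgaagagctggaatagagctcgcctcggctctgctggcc
The motif begins at position −57 from the start. Over both strands, TGACGTCA was found in 1.79% of 32851 RefSeq promoters of this length. Among 11 promoters of 7 of the regulators it was in 2, those of Meg3, which fell, and Peg3, whose ratios were positive. GGGGCCCC, the motif of the PLAGL1 protein, was in 1.08% of all promoters and in 1 of the 11, that of Peg3. H19 and Cdkn1c were not matched in the promoter table.

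Mest, which encodes an alpha/beta hydrolase fold protein linked to adipocyte enlargement, did not pass the test. The probe at chr6:30698289-30698348 (plus strand) had log2 levels of 7.04, 7.04 and 6.98 in knockout cells, against 8.83, 7.57 and 7.63 in wild-type cells. All wild-type values were higher than all knockout values, and wild-type array 1 was highest. The mean ratio was −0.99 ± 0.70 (SD, n = 3, limma adjusted p = 0.0567), and it was −0.59 without array 1 (adjusted p = 0.000156). Mest was called lower under 10 of 16 other settings, among them the scanner software's own log ratio (−1.54, adjusted p = 0.0249).

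Peg3 encodes a zinc finger protein of growth and maternal behaviour. The probe at chr7:6311815-6311874 (minus strand) had log2 levels of 8.76, 8.70 and 8.64 in knockout cells, against 8.72, 8.00 and 7.93 in wild-type cells. Knockout levels were close together, and only wild-type array 1 reached them. The mean ratio of 0.48 ± 0.38 (SD, n = 3, limma adjusted p = 0.104) did not pass, and without array 1 it was 0.70 (adjusted p = 1.4e-05). A second probe, at 6310149 to 6310208, gave 0.29 ± 0.23 (adjusted p = 0.166), and the remaining one was not tested. Peg3 alone among the 9 had a positive ratio on every array.

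H19, a maternal noncoding RNA that carries miR-675 and shares its control region with Igf2, had the widest spread of the 9. Its first probe had log2 levels of 8.83, 8.75 and 8.50 in knockout cells, against 10.56, 7.74 and 8.10 in wild-type cells. The knockout value lay below wild type on array 1 and above it on arrays 2 and 3, with ratios of −1.73, 1.01 and 0.40. The mean of −0.11 ± 1.44 (SD, n = 3, limma adjusted p = 0.920) therefore describes none of the 3 arrays, and without array 1 the ratio was 0.71 (adjusted p = 6.41e-05). That p-value rests on 2 arrays and leans on the variance pooled over genes, while the 2 ratios, 1.01 and 0.40, lay apart. The second H19 probe, of another sequence, had ratios of the same signs and the same wild-type order, but its knockout level was lowest on array 1. It had levels of 7.24, 7.78 and 7.70 in knockout cells, against 9.49, 6.91 and 7.11 in wild-type cells. Its ratios were −2.24, 0.87 and 0.59 (mean −0.26 ± 1.72, adjusted p = 0.820).

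Cdkn1c encodes p57, an inhibitor of cyclin-dependent kinases and a brake on fetal growth. The probe at chr7:143268238-143268297 (minus strand) had log2 levels of 6.55, 6.44 and 6.42 in knockout cells, against 8.24, 6.33 and 6.69 in wild-type cells. Knockout was above background on 1 of 3 arrays and wild type on 3, and the groups overlapped outside array 1. The ratios of −1.69, 0.11 and −0.27 had a mean of −0.62 ± 0.95 (SD, n = 3, limma adjusted p = 0.288), and without array 1 it was −0.08 (adjusted p = 0.671).

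Array 1 differed from the others in its wild-type channel for these genes. The wild-type level of H19 on array 1 was 2.64 above the mean of arrays 2 and 3 on the log2 scale, a shift that 0.0148% of tested genes reached, and its knockout level was 0.20 above, which 45.1% reached. The second H19 probe shifted by 2.48 in wild type and by −0.50 in knockout, opposite to the first probe and as far as 10.6% of genes. For Cdkn1c the wild-type shift was 1.73 (0.222% of genes as far) and the knockout shift 0.12. For Mest they were 1.24 in wild type (0.845%) and 0.03 in knockout. Meg3 moved by 0.81 in wild type (3.59%) and Peg3 by 0.76 (4.28%), while Grb10 and Ndn moved little, by −0.03 and −0.01. H19, Cdkn1c and Mest thus differed among the wild-type samples on 1 array more than between genotypes on the others, while the calls of Grb10, Meg3 and Ndn stood with any array left out. Among the wild-type samples, the summed mesothelial, macrophage and adipocyte markers were also highest on array 1, with the macrophage markers Adgre1 and Itgam at background throughout. Summed endothelial markers were lowest there (4896 against 5549 and 5528), as were those of smooth muscle and pericytes (52460 against 63449 and 64754). Fibroblast markers lay between (207513 against 212086 and 178387). The part of any of these lists in the shift was not tested.

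**Figure D4:**
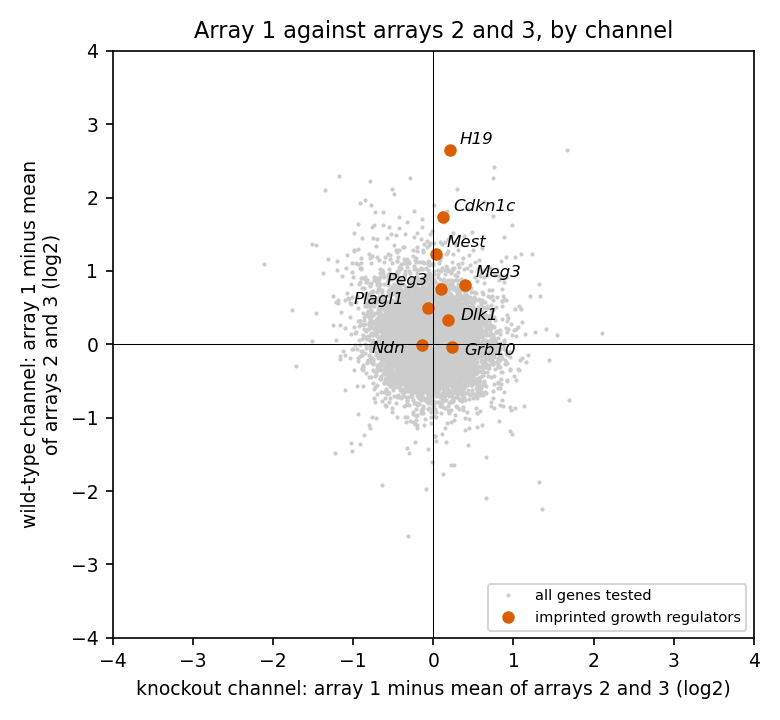
For every tested gene (grey) and the 9 regulators (orange), the level on array 1 minus the mean of arrays 2 and 3, in the knockout channel (x axis) and in the wild-type channel (y axis), both in log2. H19, Cdkn1c and Mest lie high on the wild-type axis (2.64, 1.73 and 1.24) and near 0 on the knockout axis.

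Of 62 other genes listed as imprinted, 55 were on the array and 40 were tested, with a median log2 ratio of −0.12. Whether each is imprinted in these cells was not measured. Of the 40, 3 rose (7.5%), 11 fell (27.5%) and 26 did not pass, where 8.67% of all tested genes rose and 11.4% fell. In the regulators' own clusters, 2 of 20 rose (10%) and 5 fell (25%). Cobl, an actin nucleator beside Grb10, was 2.14-fold lower (log2 ratio −1.10 ± 0.21, SD, n = 3, limma adjusted p = 0.00430). Snrpn, a spliceosomal protein gene, and Ube3a, a ubiquitin ligase, lie in the Ndn cluster and fell by 0.49 ± 0.12 (adjusted p = 0.0285) and by 0.41 ± 0.12 (adjusted p = 0.0442). Near Cdkn1c, the tetraspanin gene Cd81 rose by 0.46 ± 0.20 (adjusted p = 0.0483) and the histone chaperone gene Nap1l4 by 0.46 ± 0.12 (adjusted p = 0.0342), while Phlda2, a placental growth restrainer, did not pass. The 9 tested genes from H19 to Phlda2 thus held 2 that rose and 7 that did not pass, where 20.1% of all tested genes changed in either direction. Snrpn, Ube3a, Cd81 and Nap1l4 lost their calls without array 2 (adjusted p = 0.146 to 0.264) and without array 3 (adjusted p = 0.131 to 0.273). Ube3a was not called with median centring (−0.22, adjusted p = 0.502), nor Snrpn (0.133), and Ube3a, Cd81 and Nap1l4 were not called with offset 0 (0.0629 to 0.0836) or the software's ratio (0.0852 to 0.132). Further settings ended the calls of Ube3a, Cd81 and Nap1l4, with adjusted p of 0.0510 to 0.0675.

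In the other clusters, 1 of 20 rose (5%) and 6 fell (30%), where 8.67% of all tested genes rose and 11.4% fell. On chromosome 6, 4 of the 5 tested genes around Sgce fell, a grouping made after their values were seen. Sgce, a paternally expressed member of the dystrophin complex, was 2.09-fold lower (log2 ratio −1.06 ± 0.05, limma adjusted p = 0.00224), and its second probe gave −0.89 ± 0.06 (adjusted p = 0.00396). The called Ppp1r9a probe, for the actin-binding protein neurabin, fell by 2.69 ± 0.34 on the log2 scale (adjusted p = 0.000600) and was above background in knockout on 1 of 3 arrays, so its size is loose (−4.95 with the software's ratio), while the other tested Ppp1r9a probe had −0.27 ± 0.09 (adjusted p = 0.114). Asb4, a ubiquitin ligase adaptor, was at background in knockout and at least 2.67-fold lower (adjusted p = 0.00141), with a second probe that did not pass (adjusted p = 0.239), and the lactonase gene Pon3 fell by 0.44 ± 0.12 (adjusted p = 0.0377). Sfmbt2, a polycomb group gene, fell by 0.77 ± 0.34 (adjusted p = 0.0258), while its other tested probe did not pass (0.497). The X-linked Xlr4b fell by 4.63 ± 0.28 (adjusted p = 0.000186; −6.49 with the software's ratio, knockout above background on 2 of 3 arrays), with sex and genotype not told apart. Igf2r, the receptor that clears IGF2, rose by 1.01 ± 0.53 (adjusted p = 0.0287). Pon3, Sfmbt2 and Igf2r lost their calls without array 2 (adjusted p = 0.145 to 0.170) and without array 3 (adjusted p = 0.0767 to 0.203). Pon3 was also not called with median centring (0.289), offset 0 (0.0667), the software's ratio (0.109) or the trended variance (0.0529), Igf2r with no filter (0.0612), and Sfmbt2 as the mean of its probes (0.0757).

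**Figure D5:**
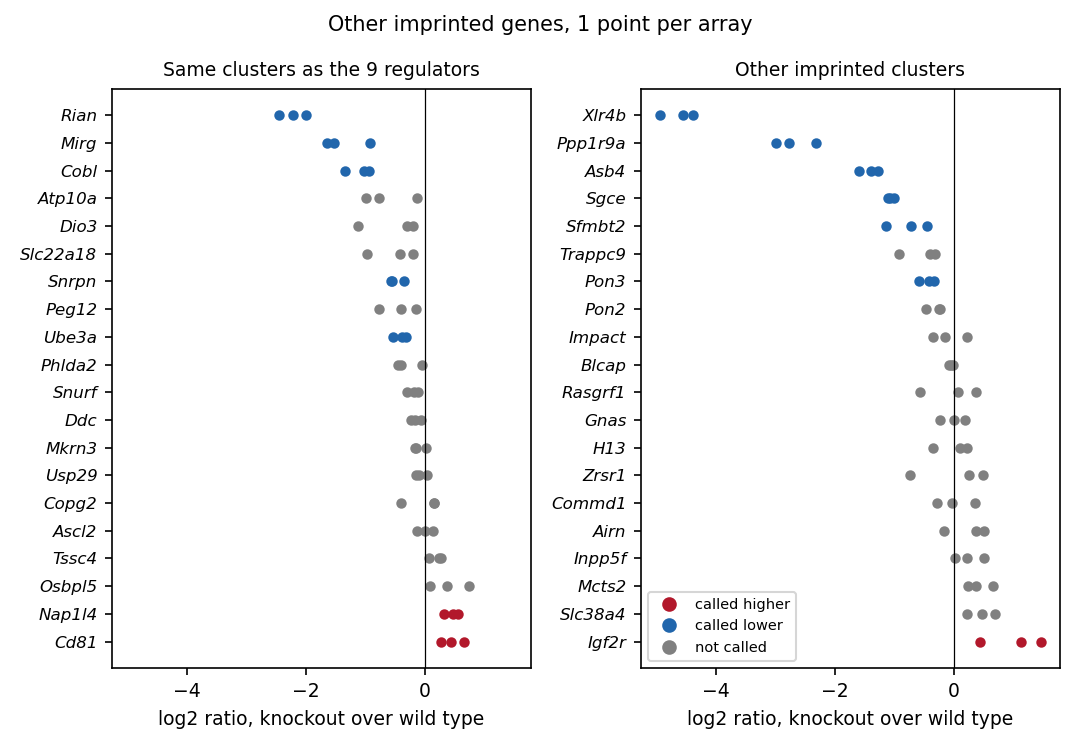
Log2 ratio, knockout over wild type, of the 40 other imprinted genes tested, with 1 point per array, in the regulators' clusters (left) and in other clusters (right); colour gives the call. In the regulators' clusters 5 genes fell and 2 rose, and in the other clusters 6 fell and 1 rose.

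Of 20 factors that set, keep or erase imprints, 18 were tested, with a median log2 ratio of 0.04. Of the 18, 1 rose and 1 fell (5.56% each), where 8.67% of all tested genes rose and 11.4% fell. Setdb1, a histone H3 lysine methyltransferase, rose by 0.49 ± 0.13 on the log2 scale (SD, n = 3, limma adjusted p = 0.0285), and Tet1, which oxidises methylated cytosine, fell by 0.44 ± 0.14 (adjusted p = 0.0410). Neither was called without array 2 (Setdb1 0.128, Tet1 0.177) or without array 3 (Setdb1 0.201, Tet1 0.194), nor with median centring (Setdb1 0.0913, Tet1 0.121), and Setdb1 was not called with the software's ratio (0.0557). Dnmt1, the maintenance DNA methyltransferase, had a ratio of 0.15 ± 0.18 (adjusted p = 0.427).

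Of 16 partners and relatives of the regulators, 13 were tested, with a median log2 ratio of −0.07. Of the 13, 1 rose (7.69%) and 4 fell (30.8%), where 8.67% of all tested genes rose and 11.4% fell. Dlk2, the paralog of Dlk1, had log2 levels of 11.67, 11.10 and 11.11 in knockout cells, against 12.94, 13.35 and 13.59 in wild-type cells. It was 4.00-fold lower, with a mean ratio of −2.00 ± 0.64 (SD, n = 3, limma adjusted p = 0.00645), and its call was lost without array 2 (0.0617) or array 3 (0.0556). Igf1r, a receptor that Grb10 binds, fell by 1.22 ± 0.24 (adjusted p = 0.00370), and Nedd4, a ubiquitin ligase that works with Grb10, fell by 1.01 ± 0.23 (adjusted p = 0.00634). Grb14, a paralog of Grb10, fell by 0.74 ± 0.17 (adjusted p = 0.0112). Cdkn2a, another inhibitor of cyclin-dependent kinases, rose by 0.90 ± 0.46 (adjusted p = 0.0297), while the closest relatives of Cdkn1c did not pass, with Cdkn1a at 0.17 ± 0.19 (adjusted p = 0.380) and Cdkn1b at 0.22 ± 0.45 (adjusted p = 0.474). Another Cdkn1b probe gave 0.44 ± 0.18 (adjusted p = 0.0513), and the mean of the gene's tested probes was 0.16 (adjusted p = 0.390). Cdkn1b was called higher without array 1 (adjusted p = 0.0217). Plagl2, a paralog of Plagl1, had −0.40 ± 0.25 (adjusted p = 0.0897). Grb14 and Cdkn2a lost their calls without array 2 (0.103 and 0.147) and without array 3 (0.109 and 0.167), and Nedd4, 1 of whose other probes did not pass (0.688), lost its call without array 3 (0.0729). Grb14 was not called with median centring (0.0683) or Cdkn2a with no filter (0.0606).

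Over the 3 arrays' log2 ratios, the genes nearest to Grb10 were Gsta2, a glutathione transferase (Euclidean distance 0.160), Cspg4, a pericyte proteoglycan (0.184), and Chst1, a carbohydrate sulfotransferase (0.207). Their mean log2 ratios were −2.65 for Gsta2, −2.57 for Cspg4 and −2.60 for Chst1. In all, 20 genes lay within 0.5 of Grb10.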

How the data were processed

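RNA of Pim1-/- and wild-type cells was amplified, labelled and hybridised together on 3 arrays, per the labels. The deposited scanner files give pixel intensity and local background intensity per spot as written by the scanner program, Agilent Feature Extraction 9.5.3.1, and its log10 ratio, knockout (Cy5) over wild type (Cy3), which the deposited value table repeats. Intensities were corrected with normexp (offset 50), made into log2 ratios and normalised by loess within arrays, with 1639 control spots and the flagged spots (121, 140 and 136) at weight 0 and flagged spots left out. Channel levels are log2 values after loess and Aquantile. With this offset, ratios of dim probes are drawn nearer to 0. No spot was saturated.

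Probes were named through RefSeq accessions and symbols (GRCm38, names only; 8058 of 41174 unnamed; 295 antisense to their gene left out). A gene was its brightest tested probe. limma 3.58.1 (R 4.3.3, prior df 3.47) tested each mean ratio against 0, with Benjamini-Hochberg adjustment over 25191 tested probes, and the pipeline was tested on simulated data. ± gives the SD over arrays, whose number limits the precision. The p-values cover that spread alone, moderated by the variance pooled over genes, and the spread may be technical. Genes named were every regulator with all its probes, every called gene of the imprinted lists, up to 4 called genes by size from the factors and from the partners, relatives of the regulators, the checks, and the 3 genes nearest to Grb10. Phlda2 and Dio3 were named after their values were seen. The regulators and lists were chosen with earlier results of these data known. The 16 alternatives were other background, normalisation, filter, variance and probe settings and leaving out each array.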

Additional observations from a re-analysis of the deposited data

How the results depend on the processing

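Grb10, Meg3 and Ndn were called lower under all 16 alternatives, and Plagl1 under those that tested it, except no filter and leaving out array 2 or array 3; probes above background in both channels left Plagl1 and Cdkn1c untested. Regulators called lower numbered 3 to 5 with 1 array left out, against 4, and those called higher numbered 0 to 2, and 1 with array weights, against 0. The ratio of H19 was 0.025 with the software's log ratio and with the value table, 0.37 with array weights and −0.66 to 0.71 with 1 array left out (0.71 without array 1); that of Dlk1 was 0.055 with median centring and that of Cdkn1b was −0.037 to 0.39 with 1 array left out. Genes called over the whole array, 2712, became 4523 with array weights and 642 to 5592 with 1 array left out. Median centring called 1857 genes, 1032 higher and 825 lower, a share of 55.6% higher against 43.1%. Other imprinted genes called, 14, became 8 with the filter on both channels, 25 with array weights and 6 to 26 with 1 array left out. Imprint factors called, 2, became 0 with median centring and 0 to 3 with 1 array left out, and partners and relatives called, 5, became 1 to 8. The cause of these changes was not tested. Dim probes bound the falls of Plagl1, Mirg and Asb4, whose ratios depend on the offset: Plagl1 was −1.55 with offset 0 and −3.69 with the software's ratio, Mirg −2.29 and −4.25, and Asb4 −2.62 and −5.02. The same held for Cobl (−1.67 and −2.13), Ppp1r9a (−3.75 and −4.95), Xlr4b (−5.52 and −6.49), Dio3 (−1.09 and −2.24) and Cdkn1c (−0.92 and −1.78, not called in either). Sizes also grew for Grb10 (−3.13 and −3.56, against −2.63), Rian (−2.90 and −3.39, against −2.23) and Mest (−1.36 and −1.54, against −0.99). Meg3 (−2.68 and −2.75, against −2.45) and Ndn (−1.91 and −1.98, against −1.66) moved less. The fold sizes given for these genes thus hold for the main setting only. The test was paired by array, because each array gave a single ratio of both genotypes. The arrays form 1 group, whose mean ratio was tested against 0.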

Other observations

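Igf2r and Dlk2 lie on chromosome 17, as Pim1 does, at distances of 16.7 Mb and 16.5 Mb from the Pim1 probe (mm8). Igf2r rose by 1.01 ± 0.53 on the log2 scale, with ratios of 0.43, 1.14 and 1.46, and Airn, the antisense RNA of the Igf2r cluster, had 0.24 ± 0.36 (SD, n = 3, limma adjusted p = 0.347). H13 had 3 probes, of which the brightest gave −0.01 ± 0.30 (adjusted p = 0.985) and another, at chr2:152398054-152398113, gave −0.86 ± 0.10 (adjusted p = 0.00498), with ratios of −0.97, −0.84 and −0.78.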
